A study of Rattus norvegicus with 36 samples.

Results

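Contracting muscle stores calcium in the sarcoplasmic reticulum, and 10 genes that build or run this store were followed in H9C2 cells given miR-125b or one of its 3′ variants. The genes were Ryr1, Cacna1s, Jph2, Atp2a1, Atp2a2, Pln, Sln, Casq1, Casq2 and Srl. They were picked by name for their place at the sarcoplasmic reticulum or at its junction with the cell membrane, and all 10 were found among the 24275 genes of the tables. The choice was made with results of these libraries known, since Srl and Sln were among the genes with the largest falls under miR-125b against the mimic control in hypoxia. Values in comparisons that hold libraries of Hypoxia MC or Hypoxia miR-125b are therefore given as a description: their calls are counted beside those of all genes, no p of a single gene is printed and nothing is read from them. Tests are read for the other libraries.

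H9C2 is a myoblast line from rat heart. A mimic was transfected at 25 nmol/L for 24 h: the mimic control (MC), miR-125b, or an isomiR with 1 base more (Plus A) or with the last base (Trim A), the last 2 (Trim AG) or the last 3 removed (Trim AGU). Normoxia or hypoxia followed for 24 h. Each of the 12 groups has 3 libraries of poly-A RNA. Counts of 33 libraries in 11 groups were used, which are all groups but Normoxia MC. The hypoxic cells were kept in low-glucose DMEM without serum and the normoxic cells in fresh DMEM, so oxygen and medium cannot be told apart. All groups are 1 cell line, and nothing in the sources used here says that the 3 libraries of a group came from separate cultures, so p-values measure the spread between these libraries, which may be technical.

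In muscle, depolarization is sensed by the voltage-gated channel of the membrane tubules, whose pore subunit in skeletal muscle is encoded by Cacna1s. That channel opens the calcium release channel of the sarcoplasmic reticulum, the ryanodine receptor (Ryr1 in skeletal muscle), and junctophilin-2 (Jph2) tethers both membranes to each other. Calcium is pumped back by the SERCA ATPases, of which Atp2a1 is the fast skeletal form and Atp2a2 the cardiac, slow skeletal and general form. Phospholamban (Pln) and sarcolipin (Sln) are small membrane proteins that inhibit SERCA. Inside the store calcium is bound by the calsequestrins, Casq1 of skeletal and Casq2 of cardiac muscle, and sarcalumenin (Srl) is a further calcium-binding glycoprotein there.

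Apart from MC, the mimics differ at their 3′ ends, and their sequences are shown because the comparisons between these mimics rest on that end. Mature rat miR-125b is in RefSeq on the GRCr8 assembly at chr11:29732588-29732609 on the plus strand, and the variants were built from it by the addition or deletion that their names state, since the sequences of the mimics themselves were not used here. Capitals mark the seed, bases 2 to 8 from the 5′ end, through which a miRNA pairs with most of its targets. The seed is the same in all 5.
miR-125b: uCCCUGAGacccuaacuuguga
Plus A: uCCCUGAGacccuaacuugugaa
Trim A: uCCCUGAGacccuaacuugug
Trim AG: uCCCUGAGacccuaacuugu
Trim AGU: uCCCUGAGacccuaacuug

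Library totals were 28361216 to 42672584 counts (median 29923694), and levels are given as CPM, the count scaled to the library total. 2 normoxia libraries went against their labels: Cav1 was at 102 CPM in Normoxia miR-125b replicate 1 against 282 and 263 CPM in replicates 2 and 3, and at 269 CPM in Normoxia Plus A replicate 1 against 98 and 98.3 CPM in replicates 2 and 3. In Cav1 each of the 2 was thus near the level of replicates 2 and 3 of the other group. Whether they were exchanged was not tested. The tests that hold these libraries were repeated without them. Hypoxia Trim AGU replicate 2 stood apart from its group, with distances of 1.05 and 0.993 on the log2 CPM scale to the other two libraries, while all other pairs of libraries within a group were 0.436 to 0.582 apart. Of 10 cardiomyocyte markers 9 were in the tables and their summed level was 11.2 to 20.7 CPM, most of it Gata4 (8.72 to 16.4 CPM), with Nkx2-5, Tbx5, Myh6, Myh7, Nppa, Nppb and Myl7 each below 1 CPM in every library. Tnni3 had counts in every library, at 0.855 to 3.43 CPM. Myod1 (17.1 to 146 CPM) and Myog (10.4 to 359 CPM), regulators of skeletal muscle differentiation, were present in every library. Myf5 and Myf6, also on the list of muscle differentiation markers, had no count in 30 and 19 of the 33 libraries. The identity of the cells was not tested beyond these levels. Endothelial markers (2 of 5 in the tables) summed to at most 4.60 CPM and the 5 leukocyte markers to at most 3.43 CPM.

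Per length of transcript, in the authors' FPKM, Atp2a2, Casq2 and Jph2 led. Median levels over the 33 libraries were 92.2 FPKM for Atp2a2, 74.2 FPKM for Casq2 and 64.0 FPKM for Jph2. The skeletal forms were lower, with medians of 4.91 FPKM for Atp2a1, 3.78 FPKM for Casq1, 1.40 FPKM for Cacna1s and 0.236 FPKM for Ryr1. Pln was at 1.67 FPKM, Sln at 0.222 FPKM and Srl at 0.0217 FPKM. Atp2a1 is annotated in the tables with a length of 543 bases only, so its FPKM rests on a short gene model.

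The levels across groups fell into 2 patterns. Srl, Sln, Atp2a1, Ryr1 and Casq1 were highest in Hypoxia MC, above every library of the other 10 groups. Atp2a2, Casq2, Jph2 and Pln were highest in normoxia. Cacna1s was highest in Hypoxia MC and higher in every hypoxia library than in any of the normoxia libraries, which hold no MC. In the authors' means of scaled counts, Cacna1s was higher in Normoxia MC (226) than in Normoxia Plus A (115). Most neighbours in the order of the group means overlapped in their libraries. Of the 10 pairs of neighbours per gene, the libraries did not overlap in 4 for Pln, in 3 for Atp2a2, Casq1, Casq2 and Cacna1s, in 2 for Atp2a1 and Jph2 and in 1 for Ryr1, Srl and Sln.

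**Figure D1:**
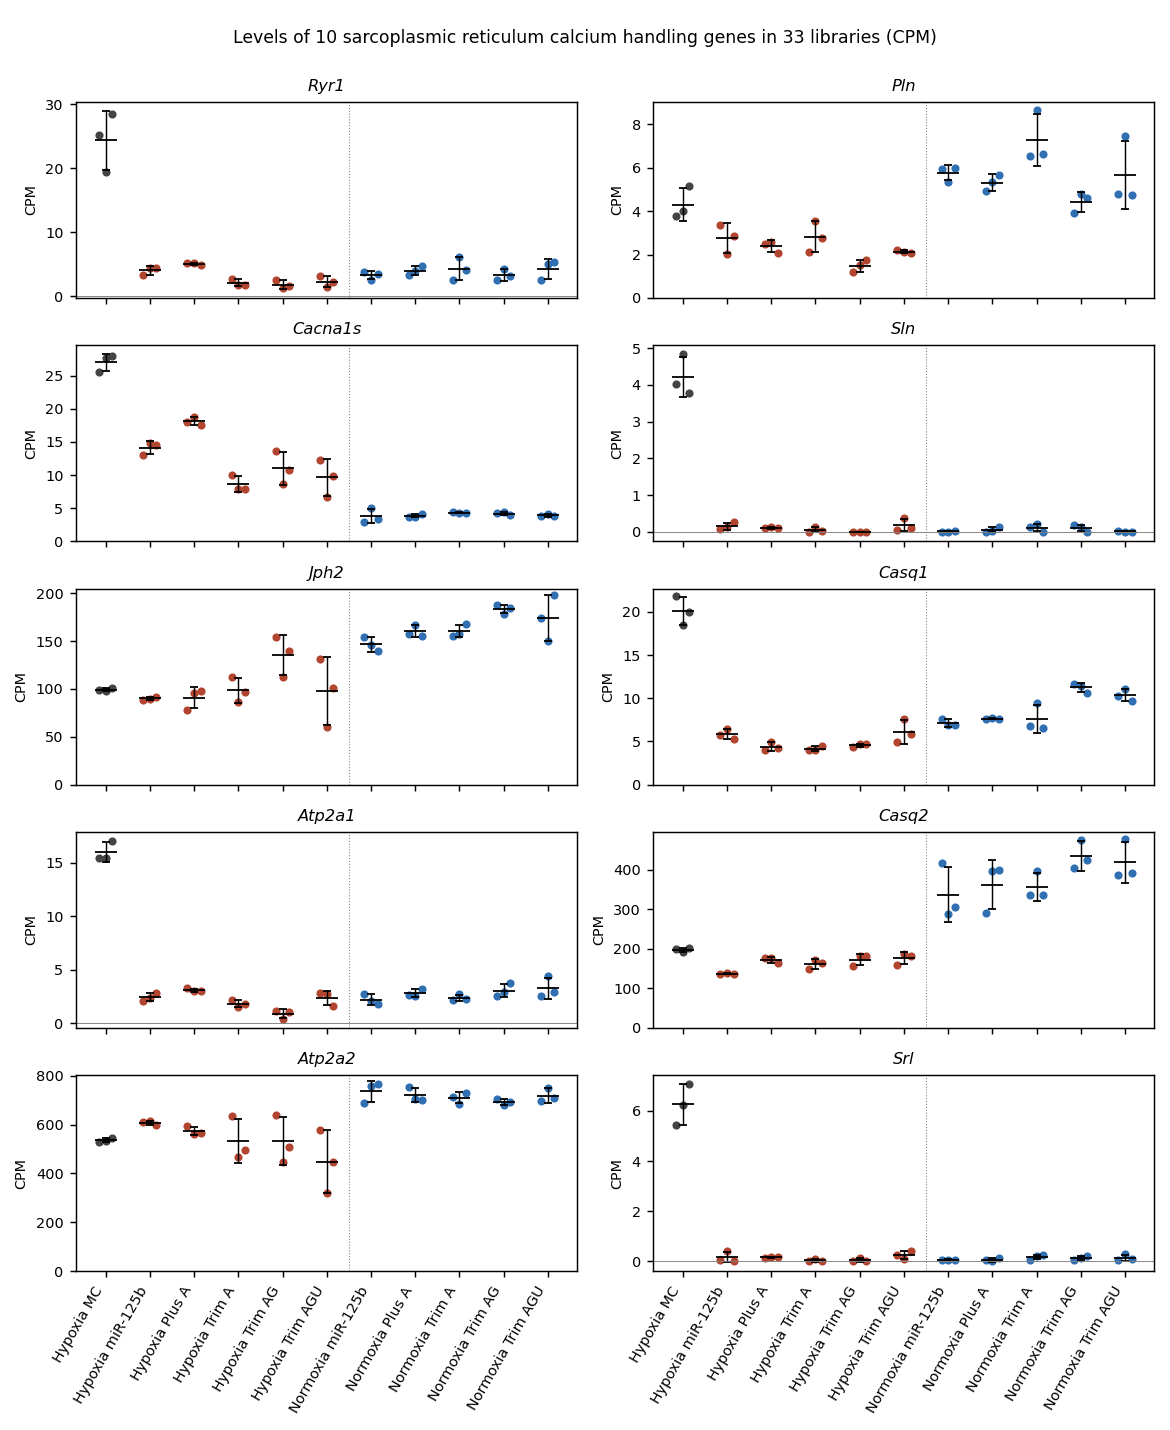
CPM (linear axes) of the 10 genes in each of the 33 libraries, by group; points are libraries, bars the group mean ± SD (n = 3), grey points Hypoxia MC, red the other hypoxia groups and blue normoxia, with a dotted line between hypoxia and normoxia. Sln and Srl sit near 0 outside Hypoxia MC, Casq2 and Atp2a2 are higher in all normoxia libraries than in any hypoxia library, and Cacna1s is the reverse. Normoxia MC is not among these libraries.

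Srl had few counts outside the control libraries. It read 5.45, 6.25 and 7.07 CPM in the Hypoxia MC libraries and at most 0.419 CPM in each of the 30 libraries with miR-125b or an isomiR, 3 of which held no count of it. Summed over the 3 libraries, Hypoxia MC held 557 counts of Srl against 16 in Hypoxia miR-125b, a ratio of 35.6 with an exact 95% counting interval of 21.7 to 62.6. In hypoxia Plus A gave a ratio of 40.4 (23.9 to 74.3) and Trim A one of 152 (58.9 to 559). Trim AG gave 129 (58.9 to 353) and Trim AGU 24.5 (16.4 to 38.1). The widest intervals are those of Trim A and Trim AG, which had 4 and 6 counts in all. These intervals cover counting error only.

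Sln followed the same course. It read 4.03, 4.84 and 3.78 CPM in Hypoxia MC and at most 0.377 CPM elsewhere, with no count in 11 of the 30 libraries. Hypoxia Trim AG held no count of Sln in any library, which makes Hypoxia MC at least 174-fold higher when 3 counts over the group are taken as the floor. In the other hypoxia groups the ratio of Hypoxia MC was 27.4 (95% counting interval 16.1 to 50.7) over miR-125b, 38.2 (20.5 to 80.2) over Plus A, 81.9 (34.8 to 254) over Trim A and 22.9 (14.3 to 39.1) over Trim AGU. In all libraries other than those of Hypoxia MC, Srl and Sln were too low for the filter on low counts, so edgeR's test of each pair did not include them. DESeq2 does not use that filter. By its default it withholds the adjusted p of genes with low mean counts, and such genes cannot be called. It called neither gene in any of the 18 other comparisons, so this absence of calls is not read. Its unadjusted p was under 0.05 in 4 for Sln and in 1 for Srl. With all libraries in 1 edgeR fit, Sln was called in 3 of the 18 and Srl in 0. That fit gave an unadjusted p under 0.05 in 7 for Sln and in 1 for Srl. The calls of Sln were hypoxia against normoxia under Trim AG and under Trim AGU, and Trim AG against miR-125b in hypoxia. Both genes passed the filter there only through the Hypoxia MC libraries, where they are high, so nothing is read from these values.

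Among the release genes, Ryr1 read 25.2, 19.4 and 28.6 CPM in Hypoxia MC and 1.23 to 5.19 CPM in the other 15 hypoxia libraries. It was below MC by a fold change of 5.86 with miR-125b and 4.72 with Plus A, and by 11.3, 12.9 and 9.93 with the trimmed mimics Trim A, AG and AGU. Every mimic library was thus far below the lowest control library. Cacna1s, the voltage sensor that opens the Ryr1 channel, read 25.6, 27.6 and 27.9 CPM in Hypoxia MC and 6.75 to 18.7 CPM under the mimics, a smaller change, with log2 fold changes of -0.90, -0.56, -1.60, -1.24 and -1.36 in the same order of mimics. Jph2 read 97.9 to 101 CPM in Hypoxia MC, with log2 fold changes of -0.10, -0.11, 0.04, 0.51 and 0.10 in the same order. Under Trim AG it read 154, 113 and 139 CPM, above every MC library, and under Trim AGU its libraries spread from 60.4 to 131 CPM.

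Of the pumps, the skeletal form stood out and the general form did not. Atp2a1 read 15.4, 15.5 and 17.1 CPM in Hypoxia MC and 0.401 to 3.28 CPM in the other hypoxia libraries. Against MC its log2 fold change was -2.66 with miR-125b and -2.35 with Plus A, and -3.07, -4.10 and -2.59 with Trim A, AG and AGU. Atp2a2 read 530, 533 and 546 CPM in Hypoxia MC, and its log2 fold changes in the same order were 0.21, 0.12, 0.03, 0.05 and -0.13. The SERCA inhibitor Pln was at 3.77, 4 and 5.15 CPM in Hypoxia MC and at 1.19 to 3.55 CPM under the mimics, with Trim AG lowest at 1.19, 1.5 and 1.76 CPM.

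The calsequestrins split in the same way. Casq1 read 21.8, 18.5 and 20.0 CPM in Hypoxia MC and 3.98 to 7.62 CPM under the mimics in hypoxia, and was below MC by a fold change of 2.95 (Trim AGU) to 4.67 (Trim A). The cardiac Casq2 read 200, 191 and 201 CPM in Hypoxia MC and 136 to 188 CPM under the mimics, all below the control libraries but by a log2 fold change of no more than -0.49.

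Below, a gene is called where edgeR's test over all genes gave it a Benjamini-Hochberg adjusted p under 0.05 and its fold change at least 1.5. Under miR-125b against MC in hypoxia 7 of the 10 genes were called, all lower, where 21.9% of the genes tested were called. For Plus A the count was 6 of 10 beside 24.8% of all genes, for Trim A 6 of 10 beside 28.1%, for Trim AG 7 of 10 beside 37.2%, and for Trim AGU 7 of 10 beside 23.8%. These 5 comparisons share the 3 Hypoxia MC libraries and the choice of the genes rests on one of them, so nothing is read from these counts. The median log2 fold change of the 10 genes was -1.32, -1.5, -1.91, -1.78 and -1.46 in that order, against medians between -0.02 and 0.00 over all genes tested. Counts and medians include Srl and Sln, which passed the filter only through Hypoxia MC, where they are high, so nothing is read from the medians either.

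**Figure D2:**
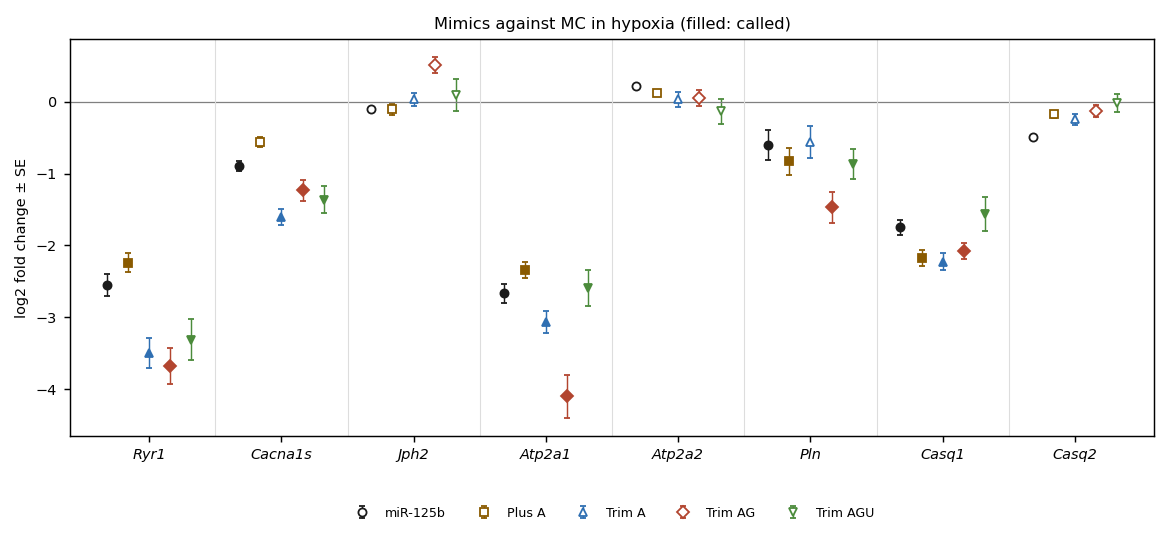
Log2 fold change ± SE of each mimic against MC in hypoxia for the 8 genes that were also tested between other groups; filled symbols mark called genes. Ryr1, Atp2a1 and Casq1 lie between -4.10 and -1.56 under every mimic and Atp2a2, Casq2 and Jph2 between -0.49 and 0.51.

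Atp2a2, Casq2 and Jph2 stayed under the fold threshold against MC under every mimic. Muscle differentiation markers, 24 of 27 of which were in the tables, moved with the other genes of the store. The summed level of these markers was 2593 to 2666 CPM in Hypoxia MC and 762 to 1119 CPM in the other hypoxia libraries, with Myf5, Myf6 and Myh8 at or near 0 throughout. Of the 21 tested, 16 to 18 were called lower under each mimic and none higher, and Myog had a log2 fold change of -2.42 under miR-125b. In the same comparisons, markers of other cells moved as well: the 5 smooth muscle markers summed to 5724 to 6033 CPM in Hypoxia MC and 9583 to 16798 CPM under the mimics, and the 7 fibroblast markers to 31481 to 32574 CPM against 9379 to 45220 CPM. The part of cell state in the levels of the calcium genes was not tested, and in bulk RNA fewer cells of a kind and less RNA per cell cannot be told apart.

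In normoxia the control is known only as the authors' group mean of scaled counts, from the table of Plus A against MC, with no spread. Srl was at 36.6 in Normoxia MC and 1.67 in Normoxia Plus A, and Sln at 24 and 1.67. Ryr1 was at 448 and 118, Casq1 at 473 and 227, Atp2a1 at 186 and 83.8, Cacna1s at 226 and 115, and Pln at 244 and 158. Atp2a2 (18190 and 21372), Casq2 (11538 and 10772) and Jph2 (4200 and 4761) were closer to each other. Myog was at 4059 and 1111 in the same means. These values have no replicate check.

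Promoter windows of 300 bases were available in RefSeq (GRCr8) for 8 of the 10 genes. Srl and Sln had none. The 4 skeletal genes below were picked because they were lower under the mimics than in Hypoxia MC. That pick rests on the libraries used in the choice of the genes, so nothing is read from it. Among these 4, Cacna1s was not called under Plus A. Each window runs 5′ to 3′ on the strand of its gene from 250 bases before the annotated start. Capitals mark E-boxes, CANNTG on either strand, the letters read by myogenic factors among others.
Ryr1: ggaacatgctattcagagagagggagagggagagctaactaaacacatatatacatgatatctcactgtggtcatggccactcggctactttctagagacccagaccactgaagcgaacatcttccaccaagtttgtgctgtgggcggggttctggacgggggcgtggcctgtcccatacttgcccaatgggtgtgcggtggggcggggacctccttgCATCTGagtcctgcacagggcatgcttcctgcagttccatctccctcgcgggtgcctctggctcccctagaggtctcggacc
Cacna1s: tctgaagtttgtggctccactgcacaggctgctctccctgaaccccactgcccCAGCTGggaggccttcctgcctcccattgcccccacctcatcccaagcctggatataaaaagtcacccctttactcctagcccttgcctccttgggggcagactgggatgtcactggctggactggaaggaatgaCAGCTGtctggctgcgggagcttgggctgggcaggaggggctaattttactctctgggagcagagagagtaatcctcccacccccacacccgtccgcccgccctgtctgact
Atp2a1: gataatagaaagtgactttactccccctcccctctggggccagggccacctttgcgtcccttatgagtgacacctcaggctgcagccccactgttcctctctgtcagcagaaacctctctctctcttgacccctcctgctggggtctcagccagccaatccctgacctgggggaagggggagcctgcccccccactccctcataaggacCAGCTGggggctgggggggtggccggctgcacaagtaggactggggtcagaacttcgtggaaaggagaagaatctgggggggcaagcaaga
Casq1: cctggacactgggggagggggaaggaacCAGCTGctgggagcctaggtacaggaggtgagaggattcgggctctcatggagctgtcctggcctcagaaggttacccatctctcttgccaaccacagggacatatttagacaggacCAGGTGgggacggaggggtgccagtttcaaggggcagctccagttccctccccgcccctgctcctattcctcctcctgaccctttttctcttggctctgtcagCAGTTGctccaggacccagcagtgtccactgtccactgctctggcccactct

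These windows lie at chr1:93551256-93551555 (minus strand) for Ryr1, chr13:50045418-50045717 (plus) for Cacna1s, chr1:190475361-190475660 (minus) for Atp2a1 and chr13:87212661-87212960 (minus) for Casq1. CANNTG was found in 7 of the 8 windows, all but that of Jph2, and in 72.1% of the 33469 promoters of the table. The E-box CAGCTG, counted among the CANNTG matches, was found in Pln, Atp2a1, Casq1 and Cacna1s, the last with 2 matches, and in 15.1% of all promoters. Of letters that can be read by hypoxia-inducible factors, ACGTG was in none of the 8 windows (19.3% of all promoters) and GCGTG in those of Atp2a2 and Ryr1 (29.7%). A MEF2 motif was found in the window of Casq2 only (3.29% of all promoters) and a CArG box in none (1.64%). A match describes letters in a window of this assembly and is no evidence of binding.

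Between the mimics in hypoxia, values against miR-125b are again a description. Under Plus A, 0 of 8 genes were called where 2.03% of all genes were (0 also with DESeq2, which gives an unadjusted p for Srl and Sln as well, and 4 at an unadjusted p under 0.05 with either tool). Under Trim A, 1 of 8 was called beside 0.873% of all genes, Cacna1s, at 10.1, 7.88 and 7.94 CPM against 13.0, 14.8 and 14.6 CPM under miR-125b. Under Trim AG, 4 of 8 were called beside 19.3% of all genes: Pln, Atp2a1 and Ryr1 were lower, with log2 fold changes of -0.87, -1.45 and -1.14, and Jph2 was higher, with 0.60. Under Trim AGU, 0 of 8 were called beside 3.75% (0 also with DESeq2, and 3 at an unadjusted p under 0.05 with either tool).

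Hypoxia against normoxia was tested under each of the 4 isomiR mimics with its own 6 libraries, to see how the store's genes differed between the conditions of culture. By edgeR's calls Casq2 and Pln fell and Cacna1s rose under all 4 mimics, Jph2 fell under 3 of them and Casq1 under 3, while Atp2a2 was lower by less. Srl and Sln did not pass the filter on low counts here. Called genes were 5 of 8 under Plus A, where 22.8% of all genes were called, 6 of 8 under Trim A (26.5%), 6 of 8 under Trim AG (32.8%) and 5 of 8 under Trim AGU (27.0%). Under each mimic 1 gene was higher in hypoxia, Cacna1s, and all others called were lower, whereas the calls over all genes were nearly even, with 2286 higher and 2719 lower under Trim AG. Without Normoxia Plus A replicate 1 the same 5 genes were called under Plus A, with log2 fold changes of -1.34 for Pln, -0.93 for Casq1 and -0.96 for Jph2 besides the values of Casq2 and Cacna1s below, and of 0.11 for Ryr1 and -0.04 for Atp2a1, which were not called.

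Casq2, the calcium buffer of cardiac muscle, was the most even of the falls. Under Trim A it read 148, 172 and 165 CPM in hypoxia and 336, 398 and 337 CPM in normoxia, and under Trim AG 156, 181 and 181 CPM against 405, 476 and 423 CPM. No hypoxia library reached the lowest normoxia library under any mimic. The fold change was 2.27 under Plus A (log2 -1.18 ± 0.117 SE, edgeR adjusted p = 3e-05), 2.33 under Trim A (log2 -1.22 ± 0.101, edgeR adjusted p = 3.2e-05), 2.5 under Trim AG (log2 -1.32 ± 0.102, edgeR adjusted p = 1.2e-05) and 2.30 under Trim AGU (log2 -1.2 ± 0.165, edgeR adjusted p = 0.0024). Without Normoxia Plus A replicate 1, whose 290 CPM differed from the 396 and 399 CPM of its group, the log2 fold change under Plus A was -1.34.

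Cacna1s went the other way. It read 18, 18.7 and 17.5 CPM in Hypoxia Plus A against 3.73, 3.72 and 4.19 CPM in Normoxia Plus A, a fold change of 4.32 (log2 2.11 ± 0.108 SE, edgeR adjusted p = 6.1e-07). The fold was 1.88 under Trim A (log2 0.91 ± 0.149, edgeR adjusted p = 0.0012), 2.64 under Trim AG (log2 1.40 ± 0.177, edgeR adjusted p = 0.00019) and 2.51 under Trim AGU (log2 1.33 ± 0.230, edgeR adjusted p = 0.006). Normoxia levels were alike, with means of 3.78 to 4.34 CPM in the 5 normoxia groups, and the hypoxia levels differed, with 8.63 ± 1.25 CPM (SD, n = 3) under Trim A and 18.1 ± 0.591 CPM (SD, n = 3) under Plus A. Without Normoxia Plus A replicate 1 the log2 fold change under Plus A was 2.06. The difference between the mimics in the change with oxygen was tested for Trim AG against Trim A only, as given below.

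Pln, the SERCA inhibitor, fell under all 4 mimics. Under Trim AG it read 1.19, 1.5 and 1.76 CPM in hypoxia and 3.93, 4.78 and 4.58 CPM in normoxia, a fold change of 2.97 (log2 -1.57 ± 0.202 SE, edgeR adjusted p = 0.0002). The log2 fold change was -1.27 under Plus A (edgeR adjusted p = 0.00019), -1.44 under Trim A (edgeR adjusted p = 0.00096) and -1.36 under Trim AGU (edgeR adjusted p = 0.0089). Over all mimics, the 15 hypoxia libraries read 1.19 to 3.55 CPM (median 2.13) and the 15 normoxia libraries 3.93 to 8.66 CPM (median 5.36), with no overlap. Atp2a2, the pump that Pln inhibits, also did not overlap, with 319 to 640 CPM (median 563) in hypoxia and 681 to 764 CPM (median 706) in normoxia, but its fall passed the fold threshold only under Trim AGU, at a log2 fold change of -0.66 ± 0.189 (edgeR adjusted p = 0.035). That call was lost without any 1 of 5 libraries, among them Hypoxia Trim AGU replicate 2 (log2 -0.51) and Normoxia Trim AGU replicate 2 (log2 -0.63, edgeR adjusted p = 0.11). Under the other 3 mimics tested Atp2a2 had log2 fold changes of -0.38 to -0.49 with adjusted p from edgeR of 9.2e-05 to 0.023, which is under the fold threshold.

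Jph2, the tether of the junction, fell under Plus A (78.3, 96.0 and 97.9 CPM in hypoxia, 158, 167 and 156 CPM in normoxia, log2 -0.93 ± 0.085 SE, edgeR adjusted p = 1.8e-05), under Trim A (log2 -0.78 ± 0.097, edgeR adjusted p = 0.00029) and under Trim AGU (log2 -0.82 ± 0.237, edgeR adjusted p = 0.036). Under Trim AG it read 154, 113 and 139 CPM against 187, 179 and 184 CPM, a log2 fold change of -0.43 ± 0.108 that was not called (edgeR adjusted p = 0.008). The call under Trim AGU was lost without Hypoxia Trim AGU replicate 3 or any of the Normoxia Trim AGU libraries (edgeR adjusted p = 0.071 to 0.12) and was kept without Hypoxia Trim AGU replicate 2 (log2 -0.62, edgeR adjusted p = 0.01). Casq1 fell under Plus A (log2 -0.90 ± 0.136, edgeR adjusted p = 0.00045), Trim A (log2 -0.94 ± 0.179, edgeR adjusted p = 0.0027) and Trim AG (log2 -1.30 ± 0.125, edgeR adjusted p = 3.9e-05). Under Trim AGU Casq1 had a log2 fold change of -0.70 ± 0.248 (edgeR adjusted p = 0.066). It passed both thresholds with DESeq2 (log2 -0.70, DESeq2 adjusted p = 0.044) and with all libraries in 1 edgeR fit (log2 -0.71, edgeR adjusted p = 0.0003). With edgeR it became -0.97 and was called without Hypoxia Trim AGU replicate 2 (edgeR adjusted p = 0.0023). That library held 7.62 CPM of Casq1 against 4.88 and 5.84 CPM in the others of its group.

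Atp2a1 and Ryr1 were less even. Atp2a1 fell under Trim AG, from 2.54, 2.89 and 3.73 CPM in normoxia to 1.19, 0.401 and 1.08 CPM in hypoxia (log2 -1.77 ± 0.353 SE, edgeR adjusted p = 0.0025), and had log2 fold changes of 0.02, -0.45 and -0.40 under Plus A, Trim A and Trim AGU (edgeR adjusted p = 0.92, 0.10 and 0.37). Ryr1 was called lower under Trim A (log2 -1.11 ± 0.320, edgeR adjusted p = 0.019) and Trim AG (log2 -0.88 ± 0.296, edgeR adjusted p = 0.031). In both its libraries overlapped between the conditions, with 2.70 CPM in Hypoxia Trim A replicate 1 against 2.57 CPM in Normoxia Trim A replicate 1. Neither call of Ryr1 was kept throughout when 1 library was left out: under Trim A it was lost without replicate 2 of either group or Hypoxia Trim A replicate 3 (edgeR adjusted p = 0.055 to 0.079), and under Trim AG without replicates 2 or 3 of either group (edgeR adjusted p = 0.061 to 0.13).

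Under miR-125b itself, where the hypoxia libraries took part in the choice of the genes, 4 of 8 genes were called beside 20.9% of all genes. Cacna1s was at 13.0, 14.8 and 14.6 CPM in hypoxia and 2.95, 5.01 and 3.37 CPM in normoxia, and Casq2 at 136, 139 and 136 CPM against 416, 289 and 305 CPM. The other 2 called were Pln and Jph2, both lower in hypoxia, with log2 fold changes of -1.15 and -0.78. Without Normoxia miR-125b replicate 1 the same 4 genes were called, with log2 fold changes of 1.67 for Cacna1s, -1.19 for Casq2, -1.12 for Pln and -0.74 for Jph2. Of the muscle differentiation markers, 0 of 20 tested were called higher and 7 lower in hypoxia under Trim A, and 1 of 21 higher and 11 lower under Trim AG, the direction of most of the calcium genes. Under Plus A 5 of 19 were higher and 4 lower, and under Trim AGU 4 of 20 higher and 5 lower. The part of these markers in the results was not tested.

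**Figure D3:**
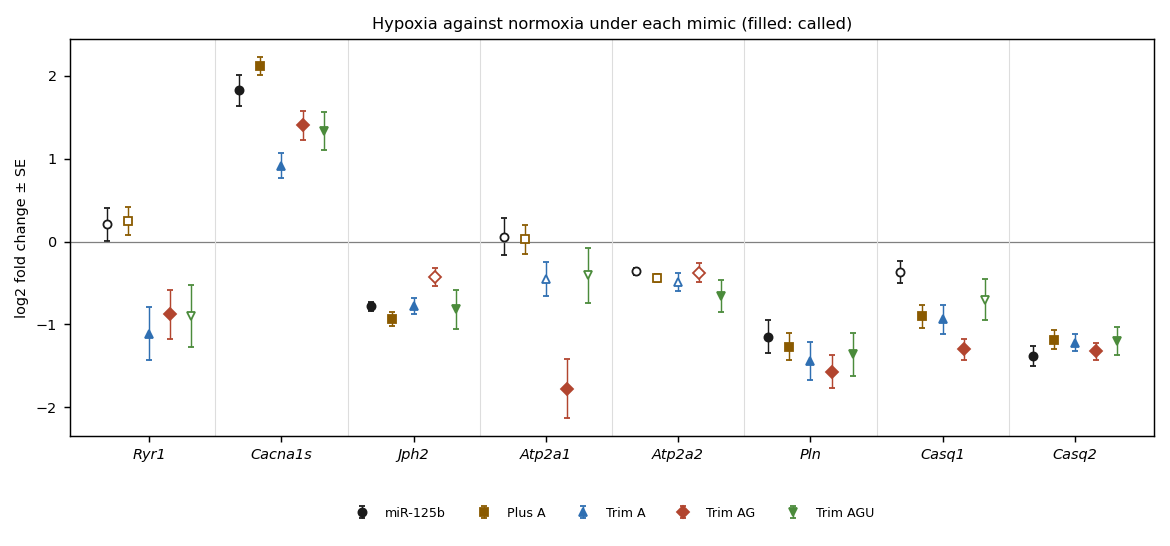
Log2 fold change ± SE of hypoxia against normoxia under each of the 5 mimics (n = 3 libraries a group) for the 8 genes tested; filled symbols mark called genes, and miR-125b is a description. Cacna1s lies between 0.91 and 2.11, Casq2 between -1.38 and -1.18 and Pln between -1.57 and -1.15, while Atp2a1 lies between -0.45 and 0.06 except under Trim AG (-1.77).

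The shorter mimics were compared with Trim A in each condition, as mimics that differ by 1 or 2 further bases at the 3′ end. Pln was the only gene called, lower under Trim AG in both conditions. In normoxia it read 3.93, 4.78 and 4.58 CPM under Trim AG and 6.52, 8.66 and 6.62 CPM under Trim A, a fold change of 1.71 (log2 -0.77 ± 0.157 SE, edgeR adjusted p = 0.0043), and 1 of 8 genes was called where 9.14% of all genes were. In hypoxia it read 1.19, 1.5 and 1.76 CPM against 2.12, 3.55 and 2.78 CPM, a fold change of 1.89 (log2 -0.92 ± 0.260, edgeR adjusted p = 0.049), and 1 of 8 genes was called where 9.43% of all genes were. The share of genes called is thus near that of all genes, and the call in normoxia was kept when any library was left out. In hypoxia the call of Pln lay at the threshold: it was kept without Hypoxia Trim A replicate 1 and lost without any other library (edgeR adjusted p = 0.097 to 0.16, log2 -0.71 to -1.05).

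Trim AGU did not differ from Trim A by a called gene in either condition. In hypoxia 0 of 8 genes were called with edgeR beside 0.599% of all genes, and in normoxia 0 of 8 beside 5.83% (in each 0 also with DESeq2, and at an unadjusted p under 0.05, 1 with edgeR and 2 with DESeq2). Casq1 was higher in every Trim AGU library than in any Trim A library, with 4.88, 7.62 and 5.84 CPM against 4.02, 4.02 and 4.46 CPM in hypoxia (log2 0.65 ± 0.256, edgeR adjusted p = 0.33) and 10.3, 11.1 and 9.71 CPM against 6.84, 9.40 and 6.52 CPM in normoxia (log2 0.42 ± 0.160, edgeR adjusted p = 0.11). Without Normoxia Trim A replicate 2, the library at 9.40 CPM, Casq1 was called in normoxia both under Trim AGU (log2 0.61, edgeR adjusted p = 0.038) and under Trim AG (log2 0.69, edgeR adjusted p = 0.0032). Without Normoxia Trim AGU replicate 2, at 7.48 CPM of Pln against 4.78 and 4.72 CPM, Pln was called lower under Trim AGU (log2 -0.63, edgeR adjusted p = 0.035). Without Hypoxia Trim AGU replicate 2 the log2 fold change of Casq1 in hypoxia was 0.39 (edgeR adjusted p = 0.31).

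Against miR-125b in normoxia, Casq1 rose under Trim AG. It read 11.7, 11.4 and 10.6 CPM there and 7.64, 6.86 and 6.88 CPM under miR-125b, a fold change of 1.53 (log2 0.61 ± 0.109 SE, edgeR adjusted p = 0.0021), and it was the 1 gene of 8 called beside 13.9% of all genes. Trim AGU gave nearly the same level, with a log2 fold change of 0.53 ± 0.127 (edgeR adjusted p = 0.015) that is under the fold threshold, and 0 of 8 genes were called beside 11.4% of all genes (0 with DESeq2, and 2 with edgeR and 3 with DESeq2 at an unadjusted p under 0.05). Under Trim A 0 of 8 were called beside 0.414% of all genes (0 with DESeq2, and 2 with edgeR and 1 with DESeq2 at an unadjusted p under 0.05), and under Plus A 0 of 8 beside 0.0% (0 with DESeq2, and 0 with either tool at an unadjusted p under 0.05). These comparisons share the 3 Normoxia miR-125b libraries. That of Plus A holds both libraries that went against their labels, 1 in each group, so its 0.0% cannot be read as likeness of the mimics. Of the muscle differentiation markers tested in these comparisons, 10 of 20 were called higher under Trim AG and 4 of 20 under Trim A. Under Trim AGU 3 of 20 were higher and under Plus A 0 of 19, and none was called lower under any. Each of these counts includes Normoxia miR-125b replicate 1, whose label is in doubt.

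With the 2 libraries in doubt left out, the same gene was called, Casq1 under Trim AG (log2 0.67, edgeR adjusted p = 0.002), and no other. Casq2 had an edgeR adjusted p under 0.05 only without them under Plus A, Trim AG and Trim AGU. Its log2 fold change under Plus A was 0.11 ± 0.166 with all libraries and 0.44 without the 2 in doubt (edgeR adjusted p = 0.0025), and under Trim AG 0.32 ± 0.131 and 0.51 (edgeR adjusted p = 0.00093), in both below the fold threshold. Replicate 1 of Normoxia miR-125b held 416 CPM of Casq2 against 289 and 305 CPM in replicates 2 and 3.

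**Figure D4:**
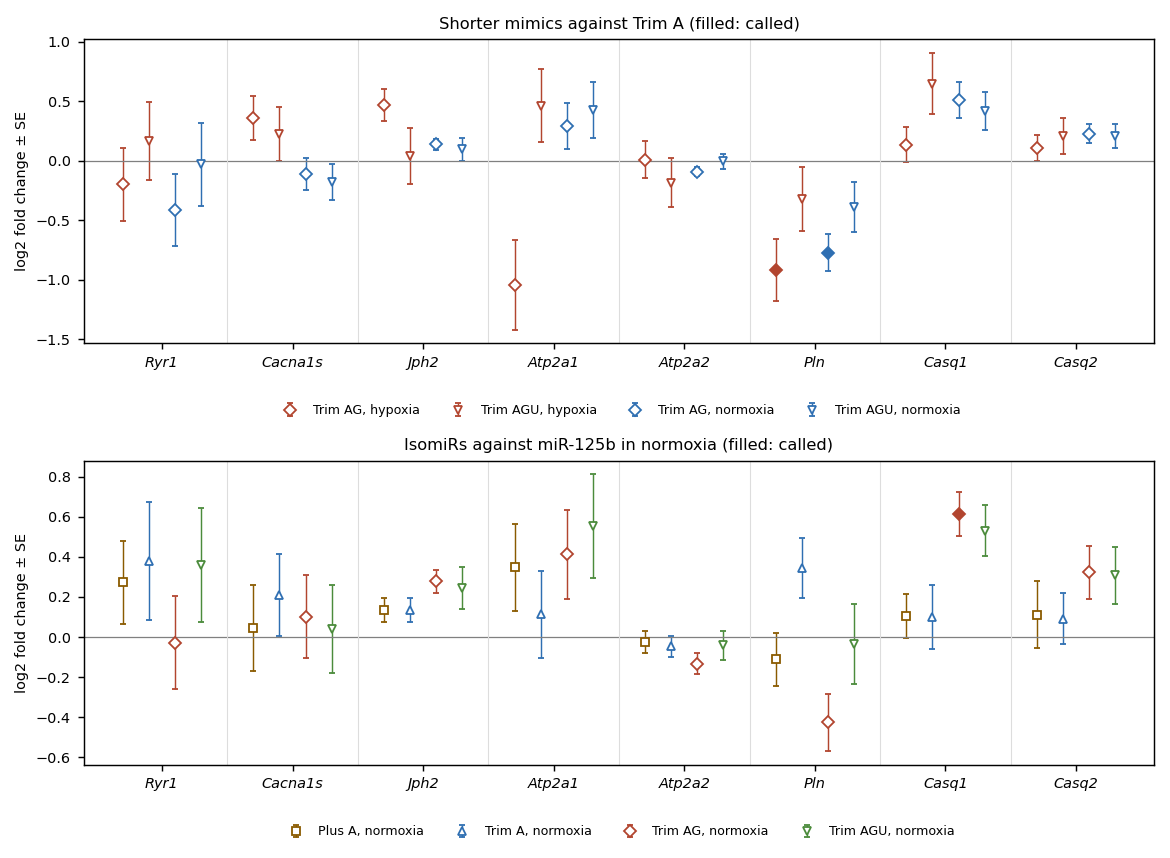
Log2 fold change ± SE for the 8 genes tested. The upper panel has Trim AG and Trim AGU against Trim A in hypoxia (red) and normoxia (blue), the lower the 4 isomiRs against miR-125b in normoxia, and filled symbols mark called genes. Filled symbols are Pln under Trim AG in both conditions (-0.92 and -0.77) and Casq1 under Trim AG in normoxia (0.61).

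Whether the step from Trim A to Trim AG differed between hypoxia and normoxia was tested in 1 fit of 12 libraries. With edgeR 0 of 8 genes were called beside 1.12% of all genes (0 also with DESeq2, and 1 with edgeR and 2 with DESeq2 at an unadjusted p under 0.05). Atp2a1 had the widest difference, with a log2 fold change of Trim AG against Trim A of -1.04 ± 0.376 in hypoxia and 0.29 ± 0.193 in normoxia, a difference of -1.35 ± 0.432 (edgeR adjusted p = 0.15). For Pln the difference was -0.16 ± 0.300 (edgeR adjusted p = 0.87). The calls of Casq2, Cacna1s and Pln with oxygen were thus made under both mimics, and no difference between the mimics was detected at this depth.

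Of 65 other genes of calcium handling in muscle, listed with earlier results known, 60 were in the tables and 51 to 54 were tested. With oxygen they also fell more often than they rose: 7 rose and 16 fell under Plus A of 53 tested, 4 and 18 under Trim A, 4 and 16 under Trim AG and 3 and 9 under Trim AGU, which is 22.6% to 43.4% of those tested beside the 22.8% to 32.8% of all genes given above. Without Normoxia Plus A replicate 1 the list had 5 higher and 16 lower under Plus A. The median log2 fold change of the list was -0.30, -0.43, -0.37 and -0.31, and that of the 8 genes of the store -0.67, -0.86, -1.09 and -0.76, with all genes within 0.02 of 0. Under Trim AG in hypoxia Camk2a, a calcium and calmodulin-dependent kinase, fell from 4.05 to 0.405 CPM (log2 -3.31, edgeR adjusted p = 1.1e-05). Atp2b4, a calcium pump of the cell membrane, fell by 1.62 on the log2 scale, Slc8a1, the cardiac sodium-calcium exchanger, by 1.37, and Itpr1, an inositol trisphosphate receptor, by 1.28, with edgeR adjusted p of 0.00015, 1.9e-05 and 4.4e-06. Ank1, whose short form links obscurin to the sarcoplasmic reticulum, fell by 1.41 (edgeR adjusted p = 6.5e-06).

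Genes that rose with hypoxia under Trim AG included Cacna1d, a further voltage-gated calcium channel (0.338 to 1.10 CPM, log2 1.69, edgeR adjusted p = 0.0023). Atp2a3, the SERCA form outside striated muscle, rose from 11.6 to 29.3 CPM (log2 1.34, edgeR adjusted p = 0.00028) while Atp2a2 had a log2 fold change of -0.38. Orai2, a store-operated channel, and S100a1, a calcium-binding protein of muscle, rose by 0.82 and 0.81 on the log2 scale (edgeR adjusted p = 7e-05 and 0.017). Against Trim A in hypoxia, Trim AG lowered 4 of 53 (7.55%, beside 9.43% of all genes) and raised none: Canx, the endoplasmic reticulum chaperone calnexin (1174 to 594 CPM, log2 -0.97, edgeR adjusted p = 0.0011), Slc8a3, a sodium-calcium exchanger (log2 -0.97, edgeR adjusted p = 0.024), Camk2b (log2 -0.76, edgeR adjusted p = 0.024) and Fkbp1b, which binds the ryanodine receptor (log2 -0.63, edgeR adjusted p = 0.015). Of these, Canx was called whichever library was left out, Fkbp1b in 3 of 6 such fits and Slc8a3 and Camk2b in 2.

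Related forms of the calsequestrins and of the pumps were compared as a ratio of FPKM within each library. Atp2a2 is also the slow skeletal and general form, so its ratio is no measure of cardiac against skeletal character. Casq2 over Casq1 was 7.18 ± 0.439 (SD, n = 3) in Hypoxia MC, 17.2 ± 1.42 in Hypoxia miR-125b, 28.8 ± 3.47 in Hypoxia Plus A, 28.3 ± 2.51 in Hypoxia Trim A, 27.6 ± 1.2 in Hypoxia Trim AG and 21.5 ± 3.10 in Hypoxia Trim AGU. In normoxia it was 34.2 ± 4.78 under miR-125b, 34.6 ± 5.97 under Plus A, 34.8 ± 3.53 under Trim A, 28.2 ± 2.62 under Trim AG and 29.5 ± 2.05 under Trim AGU. Replicate 1, whose label is in doubt, read 39.7 in Normoxia miR-125b against 30.7 and 32.3 in the others of its group, and 27.7 in Normoxia Plus A against 37.7 and 38.4. The control libraries were lowest, without overlap with any other group, and Casq2 was the more abundant form throughout. Atp2a2 over Atp2a1 was 2.76 ± 0.111 in Hypoxia MC and had group means of 15.2 to 28.3 elsewhere, apart from Hypoxia Trim AG, where it was 38.8 to 91.8 and Atp2a1 had 111 counts over the 3 libraries. These ratios are a description, and the level of the second rests on the short gene model of Atp2a1.

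**Figure D5:**
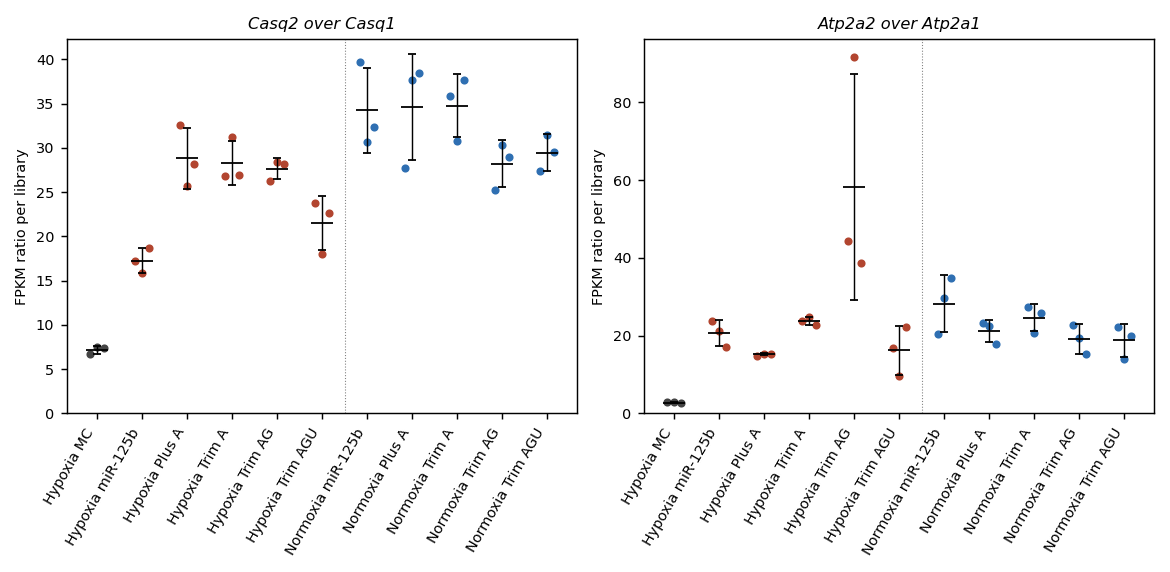
Ratio of FPKM within each library of Casq2 over Casq1 (left) and of Atp2a2 over Atp2a1 (right), by group, on linear axes; points are libraries and bars the mean ± SD (n = 3). Hypoxia MC is lowest in both, at 7.18 and 2.76, and the one library at 91.8 belongs to Hypoxia Trim AG.

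How the 8 genes whose mean reached 1 CPM varied together was described by Pearson's r of log2 CPM, separately in the 18 hypoxia and 15 normoxia libraries, which share culture, depth and the step from MC to mimic. In hypoxia Ryr1 followed Cacna1s (r = 0.94), Atp2a1 (r = 0.93) and Casq1 (r = 0.83). In normoxia, where no MC library entered, the same values were -0.08, 0.44 and 0.13. Casq1 and Casq2 had r = 0.55 in hypoxia and 0.76 in normoxia.

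Of all genes whose mean reached 1 CPM, those most like 7 of these 8 over the 33 libraries were Tle2 for Ryr1 (r = 0.95), Alkbh5 for Cacna1s (0.97), Actn4 for Jph2 (0.97), Gprc5c for Atp2a1 (0.94), Atp8b2 for Atp2a2 (0.96), Strada for Casq1 (0.96) and Anxa5 for Casq2 (0.97). Within hypoxia and within normoxia the likeness was 0.96 and 0.90 for Casq1 and Strada and 0.90 and 0.88 for Jph2 and Actn4. Ryr1 and Tle2 had 0.97 and 0.82, and Casq2 and Anxa5 had 0.71 and 0.72. For Cacna1s and Alkbh5 it was 0.94 and -0.15, so the likeness of that pair did not hold among the normoxia libraries. It was also lower there for Atp2a2 and Atp8b2 (0.95 and 0.24) and for Atp2a1 and Gprc5c (0.97 and 0.47).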

How the data were processed

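The authors aligned and counted reads of 36 poly-A libraries, of which 33 in 11 groups had counts. HISAT2 and StringTie are named in the submitters' processing notes, with no version and no strand in the library kit. The deposited count columns of 11 tables, 1 for each of the authors' comparisons, were joined by gene. Counts of a library repeated in several tables did not conflict (0 cases), and a gene missing from a table was set to 0 there. FPKM per library, deposited beside the counts, were used for levels per length. The 12th table gave Normoxia MC as the authors' group mean of scaled counts (a signal with no spread), which was described and not tested. The authors' own log2 fold changes, p-values and adjusted p-values were also in the deposited tables and were not used.

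Each pair of groups was fitted with its own 6 libraries by edgeR 4.0.16 in R 4.3.3 (TMM scaling, genes of low counts removed by filterByExpr, quasi-likelihood test), with Benjamini-Hochberg adjustment over all genes tested. A gene was called at an adjusted p under 0.05 and a fold change of at least 1.5. The fits were tested on simulated data. DESeq2 1.42.0 was an alternative, and other scalings, no filter, no fold threshold, a shared fit of all libraries, a replicate block and leaving out libraries were tried as well. Correlations used log2 CPM with a prior count of 2.

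The 10 genes and all lists were chosen with earlier results of these data known. Of the other calcium genes, those with a mean of at least 1 CPM in a group and a call were named: the 5 per direction with the largest change under Trim AG against Trim A in hypoxia and under Trim AG in hypoxia against normoxia. Like genes were those with the highest correlation with each gene, and that of Pln is not reported here.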

Additional observations from a re-analysis of the deposited data

How the results depend on the processing

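Of 2424 fold changes of the 10 genes under the alternatives, 74 had the opposite sign, none of them called in either fit and none above 0.20 (log2) as reported. Of all, 44 lost and 17 gained their call, and 281 of 311 counts of called genes were within 1.5 times of the reported ones. Of those that were not, leaving out the fold threshold called 2 genes in place of 0 for Plus A against miR-125b in hypoxia, 3 in place of 1 for Trim AG and 1 in place of 0 for Trim AGU against miR-125b in normoxia, and 3 in place of 1 for Trim AG against Trim A in normoxia. For Trim A against miR-125b in hypoxia (1 called), DESeq2 called 2 and the fits without 1 library 0 to 2. For Trim AG against Trim A in hypoxia (1 called), RLE size factors and no filter on low counts each called 0, all libraries in 1 fit called 2, and fits without 1 library 0 to 1. All libraries in 1 fit called 1 in place of 0 for Trim AGU against Trim A in hypoxia and 8 in place of 5 (Ryr1, Casq1 and Sln added) for hypoxia against normoxia under Trim AGU, where fits without 1 library called 3 to 5. Sln entered that shared fit only through the Hypoxia MC libraries, so nothing is read from its call. Without 1 library, Trim AG against Trim A in normoxia had 1 to 2 calls and Trim AGU against Trim A 0 to 1. The cause of these shifts was not tested. With library totals alone the median of all genes shifted by -0.14 (log2) in Trim AGU against MC and by 0.11 in hypoxia against normoxia under Plus A.

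The replicate number is shared between groups by label only. For Trim AG against Trim A in hypoxia the same-numbered libraries correlated at 0.29, 0.19 and 0.01, each highest with its own number, and with the replicate block 2 genes were called in place of 1. The replicate block called 0 in place of 1 for Trim A against miR-125b in hypoxia, and with it Pln under Trim AGU against MC was no longer called. In hypoxia against normoxia it ended the calls of Ryr1 under Trim AG (log2 -0.90, edgeR adjusted p = 0.063) and of Atp2a2 under Trim AGU (log2 -0.68, edgeR adjusted p = 0.081).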
